A study of Drosophila melanogaster with 2 samples.

Results

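Translation initiation factor genes were taken as the protein-coding genes of the Ensembl release 115 annotation whose symbol starts with eIF. There were 44 of them among 13945 protein-coding genes on the 6 main chromosome arms. They were chosen by name and not by a measured value, though earlier results of these data were known. ChIP-seq located Dp, the dimerization partner of E2F factors, in chromatin from Drosophila melanogaster embryos of both sexes collected at 0 to 24 hours and used whole. The embryos carried a transgene for Dp tagged with GFP at its carboxyl end, and 2 biological replicates, numbered 1 and 3 and each with a biosample record of its own, formed the only group. The labels describe both libraries as input controls while giving Dp as the antibody target, and they point to a separate experiment as a possible control. The peak lists are analysed as Dp peaks on the strength of the target label. The promoter that drives the tagged protein is not given in the sources used here, and whole embryos of this age range mix all cell types and stages, so a peak cannot be placed in any one of them.

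Initiation factors bring the small ribosomal subunit, the initiator tRNA and the mRNA together at the start codon. eIF2 carries the initiator tRNA and eIF2B recharges it with GTP, eIF3 is a scaffold on the small subunit, and eIF4E, eIF4G and eIF4A form the complex that binds the mRNA cap and unwinds the leader. Most subunits have a single gene that growing cells use widely, while some, above all eIF4E and eIF4G, have further gene copies. Drosophila eIF4E3 and eIF4G2 are known for their roles in spermatogenesis, and eIF4EHP for repressing maternal mRNAs by binding the cap without eIF4G. E2F and Dp dimers are known for controlling genes of the cell cycle, and also bind genes of general growth. No expression was measured here. The split into 33 general factors, 7 paralogs of the eIF4E and eIF4G groups and 4 other paralogs therefore follows the symbols alone. The rule for this split was set with earlier results of these data known. The paralogs were eIF4E3, eIF4E4, eIF4E5, eIF4E6, eIF4E7, eIF4EHP and eIF4G2, and, outside those groups, eIF3d2, eIF3f2, eIF3g2 and eIF4H2.

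Dp summits stood at 30 of 33 general factors, 3 of 7 eIF4E and eIF4G paralogs and 0 of 4 other paralogs. Of all protein-coding genes 42.2% had one, near the share of the eIF4E and eIF4G paralogs. The sequences under some of the members' summits are shown, though no call of binding used the sequence. They were read from RefSeq's copy of the dm6 assembly and are written along the gene's strand. Capitals mark 3 motifs on either strand. The E2F core was searched as TTNNCGC with C or G at each N, the DRE, the site of the factor DREF, as TATCGATA, and the CHR, an element of cell cycle promoters, as TTNGAA with C or T at N. A window reaches up to 60 bases to each side of the strongest summit, cut short where it would hold more than 30 annotated untranslated bases. That of eIF2A lies at the E2F core nearest its summit, and that of eIF4E3, which had no peak, runs from 100 bases before its outermost start. The E2F core stood within 50 bp of the summit in the 3 members with the strongest peaks. It did so in no other of the 33 members with a peak above the authors' threshold. That is 9.09% of them, against 12.4% of all such peaks. A DRE also stood within 50 bp of the eIF2A summit, outside its printed window, which was placed on the core.
eIF2A, chr3L:21824833-21824862, plus strand: cgtgtcgttgtgGCGCCAAtgcccatgcat
eIF3d1, chr3R:23679932-23680052, plus strand: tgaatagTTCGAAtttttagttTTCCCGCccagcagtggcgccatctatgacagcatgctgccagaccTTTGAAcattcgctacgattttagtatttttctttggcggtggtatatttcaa
eIF4G2, chr3R:23819288-23819408, minus strand: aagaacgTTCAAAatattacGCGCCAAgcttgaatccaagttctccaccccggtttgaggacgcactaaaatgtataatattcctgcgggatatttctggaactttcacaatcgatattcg
The promoters of eIF2gamma and eIF4A carry DRE copies, 3 in the window of eIF2gamma, and no E2F core.
eIF2gamma, chr3R:15263440-15263560, minus strand: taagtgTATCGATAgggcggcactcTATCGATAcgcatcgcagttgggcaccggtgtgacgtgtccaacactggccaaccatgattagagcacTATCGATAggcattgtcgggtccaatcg
eIF4A, chr2L:5981458-5981578, plus strand: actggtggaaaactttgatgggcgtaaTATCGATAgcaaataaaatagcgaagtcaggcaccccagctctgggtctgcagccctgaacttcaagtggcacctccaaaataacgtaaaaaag
Among the cap-binding genes, the printed window of the general eIF4E1 held none of these motifs, and that of its paralog eIF4E6 held a DRE. That of eIF4E3, which had no Dp peak, held a CHR. These windows differ in length and placement, so they do not set the genes apart. Outside its printed window, eIF4E1 had a CHR within 100 bp of its summit. Likewise, eIF4E6 had an E2F core within 200 bp of its summit.
eIF4E1, chr3L:9402431-9402539, minus strand: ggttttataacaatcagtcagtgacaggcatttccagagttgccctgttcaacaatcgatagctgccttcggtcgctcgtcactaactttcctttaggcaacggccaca
eIF4E6, chr3R:29027175-29027265, minus strand: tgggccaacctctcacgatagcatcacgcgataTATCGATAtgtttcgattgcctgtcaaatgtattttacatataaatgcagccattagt
eIF4E3, chr3L:8229124-8229244, plus strand: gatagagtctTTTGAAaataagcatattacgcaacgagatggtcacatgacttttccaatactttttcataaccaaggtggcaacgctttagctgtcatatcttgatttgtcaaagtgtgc
The window of eIF4G1, whose peak fell short of the authors' threshold, held a CHR. In the promoter search described further below, 26 of 44 members (59.1%) and 54.0% of all protein-coding genes had a CHR. Its presence at eIF4E3 and eIF4G1 therefore does not mark them out.
eIF4G1, chr4:930686-930789, minus strand: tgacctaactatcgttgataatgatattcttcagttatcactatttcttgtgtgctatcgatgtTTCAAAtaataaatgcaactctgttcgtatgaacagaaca

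A gene was called bound when a summit of the authors' list, thresholded by reproducibility between replicates, was found no more than 500 bp from one of its annotated starts. By that rule 33 of the 44 members were bound (75.0%), where 42.2% of all protein-coding genes were. The share differed between the classes of members. Of the general factors 30 of 33 were bound, of the eIF4E and eIF4G paralogs 3 of 7, and of the other paralogs 0 of 4. The paralogs as counted are few, the classes were compared without a test, and the share of 42.9% in the eIF4E and eIF4G paralogs is near that of all genes. Many promoters in this genome serve neighbouring genes on both sides, so the count was repeated with a summit counted for the nearest start alone. A summit at the same distance from the starts of several genes was counted for each of them. Then 24 general factors, 2 paralogs of the eIF4E and eIF4G groups and 0 of the others were bound, or 59.1% of all members against 32.9% of all genes.

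The lists with no threshold on reproducibility, called relaxed, gave the same order of classes. A summit of the pooled relaxed list lay within 500 bp of a start in 32 of 33 general factors and 4 of 7 eIF4E and eIF4G paralogs, where 60.3% of all genes had one. Relaxed summits of both replicates were present in 31 and 3 of them, where 56.3% of all genes had both. None of eIF3d2, eIF3f2, eIF3g2 and eIF4H2 had a peak within that distance in any of the lists, the relaxed ones included. Their nearest thresholded summits were 24679, 13467, 56160 and 63344 bp away.

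**Figure D1:**
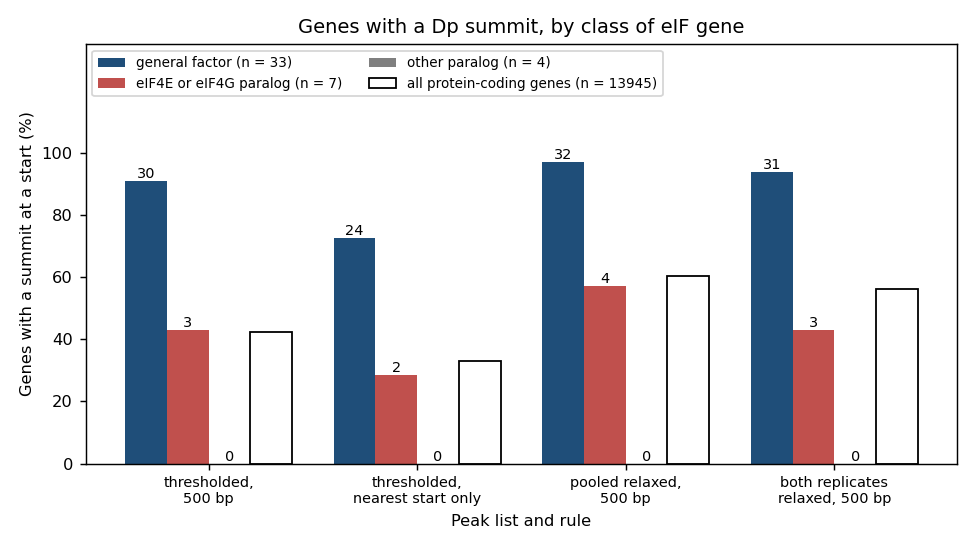
Share of genes with a Dp summit at a start (vertical axis, percent) under 4 rules, for 33 general factors, 7 eIF4E or eIF4G paralogs, 4 other paralogs and all 13945 protein-coding genes; numbers above bars count genes. General factors stand above all genes under each rule, from 72.7% to 97.0%, and the other paralogs are at 0.

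The cap-binding group held both bound and unbound members. eIF4E1, the main cap-binding protein, had a thresholded peak on chr3L from 9402288 to 9402652 with its summit 19 bp upstream of a start. Its signal, the authors' own value on a scale that is not stated, was 702 in the pooled list, 426 in replicate 1 and 289 in replicate 3. Signals of the replicate lists are lower than pooled ones across the members, so replicate values are not set against pooled ones. eIF4EHP reached nearly the same pooled value, 703, with 382 in replicate 1 and 334 in replicate 3, on chr3R from 24108834 to 24109427. eIF4E6 was lower at 464, with 218 in replicate 1 and 243 in replicate 3. Its peak, on chr3R from 29027059 to 29027368, had its summit 54 bp from the start of eIF4E6 and 8 bp from that of CG1951. The summit therefore cannot be given to either gene, and under the nearest start rule it went to CG1951. These 3 ranked 2703, 2700 and 3709 among the 5828 thresholded peaks.

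No thresholded summit lay near the other cap-binding paralogs. eIF4E3, eIF4E4 and eIF4E5 had no peak within 500 bp in any list, and their nearest thresholded summits were 31050, 37903 and 17062 bp away. eIF4E7 had a pooled relaxed peak of 27.7 at rank 28525 of 30000, close to the lowest value in that list, 26.2, and neither replicate list had one there. Its nearest thresholded summit was 52796 bp away.

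In the eIF4G group the paralog was bound and the general gene was not. eIF4G2 had the third strongest peak of all members, at 4685 and rank 286, with 2580 in replicate 1 and 2158 in replicate 3. The peak ran on chr3R from 23818880 to 23819860, with its summit 111 bp upstream of the start and inside an intron of CG34355. The start of CG33111 lay at the same distance, so the summit cannot be given to either gene alone. Under the nearest start rule it counted for both. eIF4G1, the general scaffold, had no thresholded peak. Its pooled relaxed peak, 14 bp upstream of the start, had a signal of 200 at rank 6013, just below the lowest thresholded signal of 213. Replicate 1 had a peak there of 127 at rank 5481, and replicate 3 had none within 500 bp. eIF4G1 lies on chromosome 4, where 11 of 80 genes were bound (13.8%) and 57 of 80 had a pooled relaxed summit (71.2%). The part of that location in its value was not tested. eIF4A, the helicase that joins them, was bound on chr2L at 627, with 394 in replicate 1 and 248 in replicate 3 and a summit 246 bp upstream. A weaker summit of 260 lay 46 bp upstream of eIF4A.

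**Figure D2:**
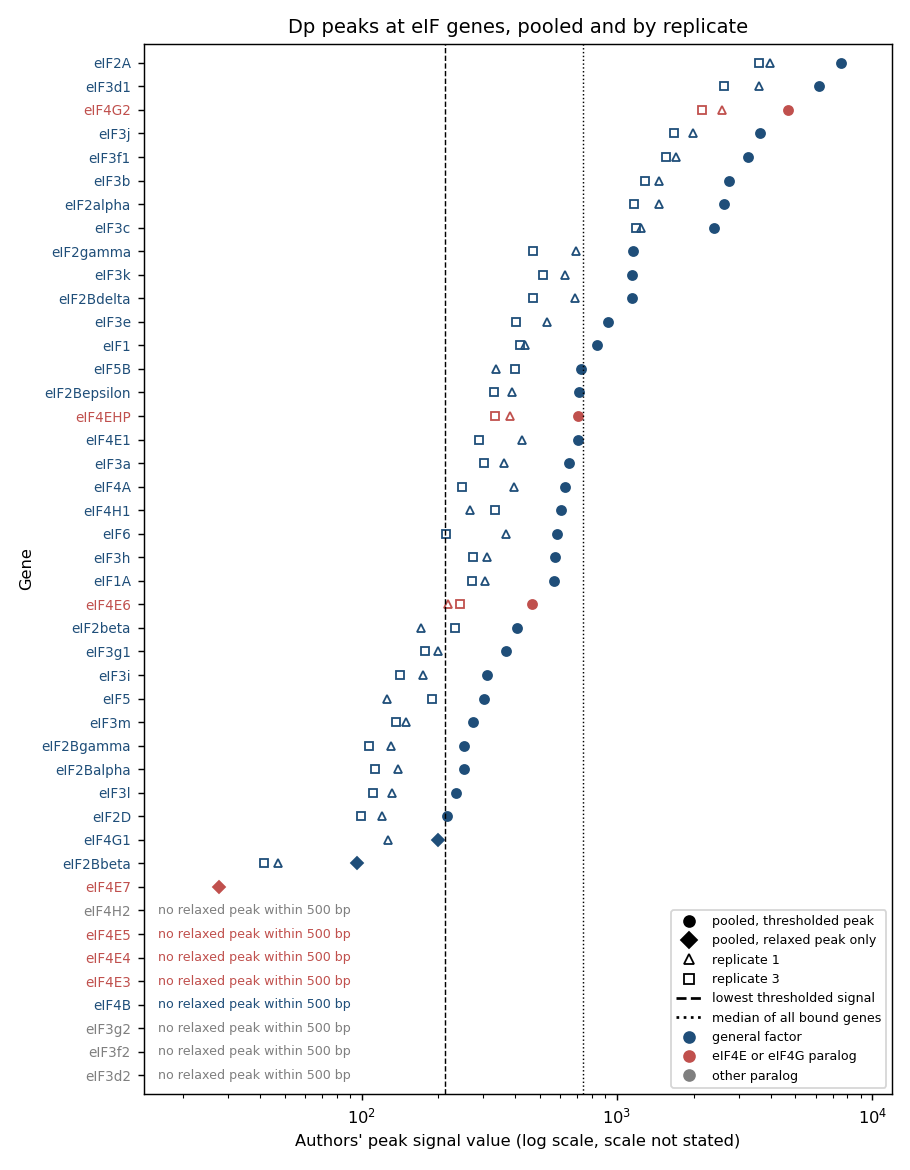
Authors' peak signal (horizontal axis, log scale) of each of the 44 eIF genes. Filled circles are pooled thresholded peaks, diamonds pooled relaxed peaks, and open triangles and squares replicates 1 and 3. All share the same axis, though the lists may differ in scale, and colours mark the classes. The dashed line is the lowest thresholded pooled signal, 213, and the dotted line the median of all bound genes, 736; eIF2A is highest at 7546, and 8 genes have no relaxed peak within 500 bp.

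All 3 genes of eIF2, the carrier of the initiator tRNA, were bound. eIF2alpha, the subunit that stress kinases phosphorylate, was the strongest of them at 2617, with 1456 in replicate 1 and 1168 in replicate 3, on chrX from 16446703 to 16447373. eIF2gamma, the GTPase subunit, followed at 1159, with 692 in replicate 1 and 471 in replicate 3. It shares its start region with Su(var)3-9, a histone methyltransferase gene long known to be fused to it in flies, and the summit also lay within 500 bp of the start of Set. eIF2beta was lowest at 407, with 171 in replicate 1 and 232 in replicate 3. This summit lay 261 bp upstream, and a weaker summit of 350 lay 3 bp downstream of the start. The strongest replicate 1 peak at eIF2beta, of 231, lay 14 bp upstream.

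Of the 5 eIF2B genes 4 were bound, with pooled signals from 251 to 1148. eIF2Bdelta was highest at 1148, with 685 in replicate 1 and 469 in replicate 3, but its summit was 17 bp from the start of roh and 41 bp from its own. eIF2Bepsilon, the catalytic subunit, had 713, with 388 in replicate 1 and 329 in replicate 3, and its summit was nearer to Ocrl. eIF2Balpha and eIF2Bgamma stood at 251 each, close to the lowest thresholded value. eIF2Bbeta was unbound; its relaxed peak 58 bp downstream of the start had 95.7 in the pooled list, 47.2 in replicate 1 and 41.6 in replicate 3, and its nearest thresholded summit was 693 bp away.

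The proteins named eIF2A and eIF2D are separate from eIF2 and are studied as alternative carriers of initiator tRNA. Their genes stood at opposite ends of the bound members. eIF2A had the strongest peak of all members, at 7546 and rank 40, with 3963 in replicate 1 and 3603 in replicate 3. It ran on chr3L from 21824465 to 21825291, with the summit 80 bp upstream of one of its starts, inside its own annotated 5′ untranslated region, and no other protein-coding start within 500 bp. eIF2D had the weakest, at 216 and rank 5787, with 120 in replicate 1 and 99.7 in replicate 3.

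The eIF3 scaffold had 13 of its 16 genes bound, and the 3 without a peak were the paralogs eIF3d2, eIF3f2 and eIF3g2. Their partner genes eIF3d1, eIF3f1 and eIF3g1 were bound. eIF3d1, whose protein can itself contact the cap in human cells, stood at 6201 and rank 94, with 3600 in replicate 1 and 2625 in replicate 3, on chr3R from 23679650 to 23680501. eIF3f1 stood at 3257, with 1708 in replicate 1 and 1561 in replicate 3, on chr3R from 4713885 to 4714602. eIF3g1 was far lower at 368, with 200 in replicate 1 and 178 in replicate 3. The bound genes of the complex therefore spanned a wide range, from 235 for eIF3l to 6201, with a median of 921.

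Others with strong peaks were eIF3j, a loosely attached subunit, and the core subunits eIF3b and eIF3c. eIF3j had 3630, with 1987 in replicate 1 and 1671 in replicate 3, and its summit lay 23 bp upstream of a start. eIF3b had 2752, with 1463 in replicate 1 and 1289 in replicate 3, but this summit was 275 bp away and nearer to Patronin. A weaker summit of 1077 lay 68 bp upstream of eIF3b. eIF3c had 2397, with 1239 in replicate 1 and 1193 in replicate 3. eIF3k had 1148, with 628 in replicate 1 and 512 in replicate 3. The largest subunit, eIF3a, had 650, with 361 in replicate 1 and 301 in replicate 3, and its summit was nearer to CG1074. eIF3e had 921, the median of the bound eIF3 genes, with 531 in replicate 1 and 401 in replicate 3. Lower was eIF3h at 572, with 310 in replicate 1 and 274 in replicate 3. eIF3i, eIF3m and eIF3l stood at 309, 274 and 235, and replicate 3 was below replicate 1 in each. The eIF3l summit was 377 bp from its start and 45 bp from that of Nrx-IV, so under the nearest start rule eIF3l was not bound.

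The remaining factors were bound at middling or low values, except for eIF4B and eIF4H2. eIF1 and eIF1A, which help the small subunit scan for the start codon, had 838 and 565. eIF1 had 437 in replicate 1 and 417 in replicate 3, and eIF1A had 305 and 271. The eIF1 summit of 838 lay 294 bp upstream and 87 bp from the ribosomal protein gene RpL28, and a summit of 665 lay 91 bp upstream of eIF1. eIF5B, the GTPase of subunit joining, had 721, with 335 in replicate 1 and 398 in replicate 3. eIF5, which activates GTP hydrolysis by eIF2, had 302, with 126 in replicate 1 and 189 in replicate 3. The eIF5B summit was 332 bp from its start and 6 bp from that of CG46463, and the eIF5 summit was 380 bp from its start and 114 bp from that of exd. eIF6, which keeps the ribosomal subunits apart, had 584, with 368 in replicate 1 and 215 in replicate 3, and eIF4H1, a helper of eIF4A, had 606, with 267 in replicate 1 and 334 in replicate 3. eIF4B, another helper of eIF4A, lies on arm 3L from 27842669 to 27858271, beyond the last summit on that arm in the pooled list, at 24536113. None of the 36 genes that start beyond 23 Mb on 3L had a pooled relaxed summit, so its lack of a peak cannot be told apart from a lack of peaks beyond that summit.

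Bound members were about as strong as bound genes in general. Their median signal was 702, with quartiles of 407 and 1159, against 736 with quartiles of 430 and 1790 for all 5891 bound protein-coding genes, a ratio of 0.955. Of the 33 bound members 13 lay above that median and 20 below, and 4 were among the 582 strongest peaks (12.1%), where 10.4% of bound genes were. Those 4 were eIF2A, eIF3d1, eIF4G2 and eIF3j. Over the members the log2 ratio of replicate 3 to replicate 1 had a median of -0.25 (SD 0.29, n = 33), against -0.21 (SD 0.28) over all bound genes. Replicate 3 was lower in 28 of the 33, and in 4675 of the 5825 bound genes with a value in both. The lists may differ in scale, so the ratios describe the lists only. The extremes were -0.78 for eIF6 and 0.58 for eIF5.

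The strongest summits mostly lay just upstream of the closest start. The strongest summit was upstream of the gene's closest start in 32 of 33 bound members (97.0%), against 91.5% of all bound genes, and the exception was eIF2D, 7 bp downstream. Those of eIF2A, eIF3h and eIF3j, genes with 2 annotated starts, lay downstream of the outermost one, in the gene's own 5′ untranslated region. Weaker summits closer to the starts of eIF2beta and eIF3c lay 3 and 39 bp downstream. It was within 100 bp in 23 of 33 (69.7%), against 61.4%, with a median distance of 65 bp against 69 bp. Another protein-coding start lay within 500 bp of the summit in 19 members (57.6%), against 58.5% of all bound genes. In 10 of these the member's own start was the nearest or tied, and in 9 another start was nearer. Of the 7 members whose summit was more than 200 bp away, namely eIF1, eIF2beta, eIF3b, eIF3l, eIF4A, eIF5 and eIF5B, 5 had another start nearer, and their signals reached 2752 at most.

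**Figure D3:**
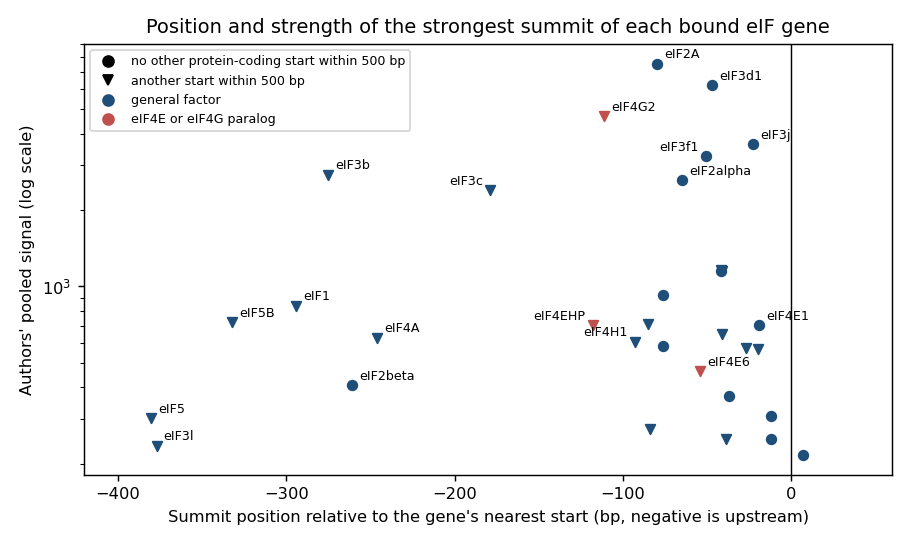
Position of the strongest summit of each of the 33 bound eIF genes relative to its nearest start (horizontal axis, bp) against pooled signal (vertical axis, log scale); circles have no other protein-coding start within 500 bp and triangles do. All but eIF2D lie upstream, and 4 of the 6 strongest peaks are at genes with no other start within reach.

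Motifs at the summits were counted beside those at Dp peaks in general, with no test of the differences. The general set was not limited to summits within 500 bp of a start, as the member summits were. Part of a difference can come from that. Within 100 bp of the summit on either strand, the E2F core was present in 4 of 33 bound members (12.1%), against 18.9% of all 5828 thresholded summits. These were eIF2A, eIF3d1, eIF4G2 and eIF1, with a median signal of 5443, against 627 for the 29 without it. Of these summits, that of eIF1 was nearer to the start of RpL28, and that of eIF4G2 was as near to that of CG33111. Over all thresholded peaks the medians were 1312 with the core and 585 without. The DRE was present in 11 members (33.3%), against 14.5% of all summits. They were eIF1, eIF2A, eIF2alpha, eIF2gamma, eIF3a, eIF3c, eIF3f1, eIF4A, eIF4E6, eIF5 and eIF6. The summits of eIF1, eIF3a, eIF4E6 and eIF5 were nearer to the start of another gene, and that of eIF2gamma was as near to that of Su(var)3-9. Members with a DRE had a median signal of 838 and those without one 654. Over all thresholded peaks these medians were 942 and 599. The CHR, at 16 members (48.5%), was near its share of all summits, 49.3%, in this window, while within 50 bp it was at 5 (15.2%) against 26.1%. Motif 1, the site of M1BP, was at 3 members (9.09%) against 7.02%. The E-box CACGTG, a site of Myc, was at 0 members, against 3.05%, and within 200 bp at 2 (6.06%) against 5.40%. In these windows, matches of different motifs shared no letters in any bound member.

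**Figure D4:**
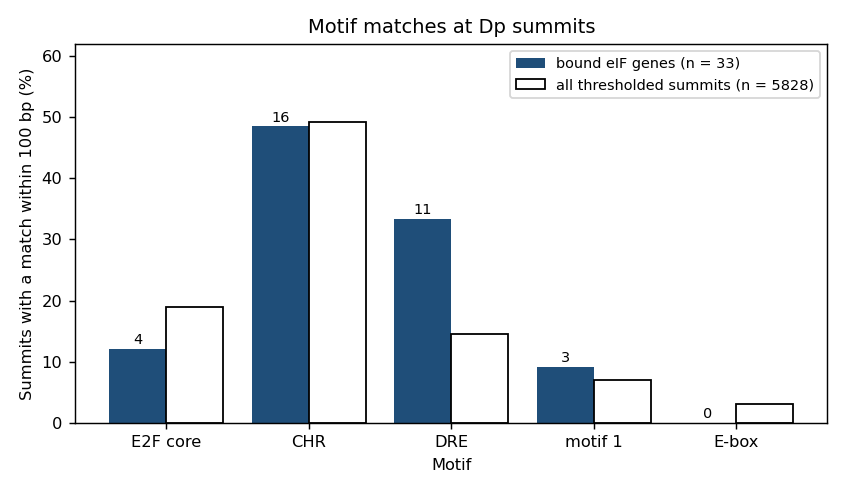
Share of summits with a motif match within 100 bp on either strand (vertical axis, percent) for the 33 bound eIF genes and all 5828 thresholded summits; numbers above bars count genes. The DRE is at 33.3% of the eIF summits against 14.5% of all, and the E2F core at 12.1% against 18.9%, with no test of either difference. The set of all summits was not limited to those within 500 bp of a start.

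Promoters were also searched whether or not they were bound, from 250 bases before to 50 after each annotated start. A DRE was in 13 of 44 members (29.5%), against 10.2% of all protein-coding genes. Of these 13, 11 were bound (84.6%), and eIF2Bbeta and eIF4B were not, where 85.3% of all genes with a DRE there were bound. Among bound genes alone, 11 of 33 members and 1209 of 5891 protein-coding genes had a DRE there. The E2F core was in 7 members (15.9%), against 18.1%. All 7 were bound, where 52.6% of all genes with the core and 75.0% of all members were. Neither motif was in 26 members, and 17 of these were bound (65.4%), eIF4E1 and eIF4EHP among them, against 35.1% of all genes with neither. The 9 unbound ones were eIF4G1 and the paralogs eIF3d2, eIF3f2, eIF3g2, eIF4H2, eIF4E3, eIF4E4, eIF4E5 and eIF4E7. The TCT initiator, a start sequence known from ribosomal protein genes and other genes of the translation machinery, was searched on the gene's strand as NCTTTN, with C or T at each N and its fixed C within 10 bases of a start. It was in 8 members (18.2%), against 4.09% of all genes, namely eIF1A, eIF3c, eIF3e, eIF3f1, eIF3g1, eIF3i, eIF3m and eIF4A. All 8 were bound, and so were 25 of the 36 members without it (69.4%). Over all genes, 51.4% of those with the sequence and 41.9% of those without were bound. The 8 are all general factors, a class with 90.9% bound. Genes with several annotated starts have more chances of a match.

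Genes that regulate initiation but carry other symbols were largely bound as well. Of 18 listed regulators 17 matched the annotation, and 15 of these had a thresholded summit (88.2%, against 42.2% of all protein-coding genes), with a median signal of 649. Another protein-coding start lay within 500 bp of the summits of cup, mxt, Gcn2, kra, DENR, MCTS1, pix and S6k. No count by nearest start is given for this list, so those summits cannot be given to the regulators alone. Lk6, the kinase of eIF4E, had 6932 at rank 55, with strongest relaxed peaks of 3501 in replicate 1 and 3459 in replicate 3. bel, a DEAD-box helicase of initiation, had 6053, with 3359 in replicate 1 and 2714 in replicate 3. NAT1, a relative of eIF4G without the part that binds eIF4E, had 5642, with 2826 in replicate 1 and 2846 in replicate 3, and it was chosen after its value was seen. The 2 unbound ones, Thor and 4E-T, encode proteins that bind eIF4E, as do the bound cup and mxt, at 298 and 428. Thor, the 4E-BP of flies, had a pooled relaxed peak of 124 at rank 7720, and 4E-T, on chromosome 4 like eIF4G1, one of 56.9 at rank 13243.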

How the data were processed

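ChIP-seq peaks of Dp were analysed in 2 replicates of 1 group. Chromatin was sonicated to 200 to 800 bp, per the labels. The authors deposited a relaxed peak list per replicate, a relaxed list of both pooled (30000 peaks each) and a list of 5828 peaks thresholded by irreproducible discovery rate, on dm6, per the notes deposited with the files. No label or file header used here names the aligner or the peak caller. The signal of each peak and its −log10 q are as the authors deposited them. The −log10 q was used for no call or rank. Read depth is unknown, since the files hold peaks.

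Summits were the peak start plus the deposited offset, written 1-based. Starts came from all annotated transcripts of protein-coding genes in Ensembl release 115, and each gene took its strongest summit within 500 bp. For a bound member, the value in a replicate came from the relaxed summit closest to the pooled one and at most 150 bp from it. For genes outside the eIF symbols it was the strongest relaxed peak within 500 bp of a start. No hypothesis test was run, since the design has no contrast. The members, their classes, the gene lists and the motifs were chosen with earlier results of these data known. Every gene of the eIF4E and eIF4G groups, eIF4A, the 10 strongest and the unbound members were to be named, with the 2 strongest and the unbound genes of each other list. Further members named were chosen after their values were seen. Alternatives changed the distance, the assignment to starts, the peaks used, the motif window and the classes. The calls were tested on planted summits at 200 genes, and 200 were called as planted. Python 3.11.15, numpy 2.4.6, pandas 2.3.3 and matplotlib 3.10.9 were used.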

Additional observations from a re-analysis of the deposited data

How the results depend on the processing

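The count of bound members went from 33 to 30 with summits within 250 bp (37.7% of all genes) and 34 within 1000 bp (45.3%), and to 26 with nearest starts only (32.9%). With the 2914 strongest peaks it was 18, of which 16 were general factors, against 23.9% of all genes. Each replicate alone, taken as its 5828 strongest relaxed peaks, gave 29 without replicate 1 (40.4% of all genes) and 34 without replicate 3 (42.4%). The first lost eIF2Balpha, eIF2Bgamma, eIF2D and eIF3l, and the second gained eIF4G1. General factors then numbered 26 and 31, while the eIF4E and eIF4G paralogs stayed at 3 and the other paralogs at 0. With eIF4EHP among the general factors these were 31 of 34 and the paralogs 2 of 6. Without chromosome 4 and 3L beyond 23 Mb, an alternative chosen after seeing the data, 30 of 31 general factors were bound.

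The log2 ratio of the members' median signal to that of all bound genes, -0.07, went to 0.02 with summits added up within 500 bp and -0.12 within 1000 bp, and ranged from -0.14 without replicate 1 to -0.08 without replicate 3. Its sign is not firm, and the cause was not tested. The E2F core was at 3 members within 50 bp (9.09%, against 12.4% of all summits) and 7 within 200 bp (21.2% against 26.5%), and its longer form at 1 (3.03% against 10.2%). No paired analysis was possible because the series has 1 group. Small classes, 2 replicates and unknown depth limit all counts.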

Other observations

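The factors that follow initiation were bound too, at lower signals. Of 10 listed elongation and termination genes 9 matched the annotation and 7 were bound (77.8%, against 42.2% of all protein-coding genes), with a median signal of 326. Another protein-coding start lay within 500 bp of the summits of eEF1alpha1, eEF1beta, eRF1 and eRF3. eEF5, the hypusine-containing factor once named eIF5A, had 668, with strongest relaxed peaks of 465 in replicate 1 and 325 in replicate 3. eEF1gamma, of the complex that reloads eEF1alpha, had 657, with 363 in replicate 1 and 292 in replicate 3. The unbound genes were eEF1alpha2 and eEF1delta. eEF1alpha2 had a pooled relaxed peak of 123, with 63.3 in replicate 1 and 68.5 in replicate 3. eEF1delta had one of 126, with 71.7 in replicate 1 and 75.0 in replicate 3. All 9 had a relaxed summit of both replicates at a start, where 56.3% of protein-coding genes did.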
